A study of Gallus gallus with 6 samples.

Results

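The sites described here are stretches of chick chromatin called as acetylated on lysine 27 of histone H3 (H3K27ac) with FGF2 and not in control. Control tissue was cultured for the same 6 h without FGF2, and no library was made from tissue before treatment. The sites were chosen by the peak calls themselves. A site is an FGF2 Homer H3K27ac peak that shares at least 1 bp with an FGF2 MACS2 H3K27ac peak and overlaps no control H3K27ac peak of either caller and no control Homer H3K27me3 peak. Chromosomes 1, 2 and 3 from 100 Mb onwards, where positions in the control MACS2 lists are rounded, and all scaffolds were left out. Of the 37405 FGF2 Homer H3K27ac peaks, 31591 lie in the chromosome parts used, 18724 of these were also called by MACS2, 6012 of those had no control H3K27ac peak, and 296 of these were removed for a control H3K27me3 peak. The remaining 5716 gained sites are 18.1% of the 31591 peaks, and that share is fixed by the rule. All but 1 are 751 bp wide.

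The tissue was posterior pre-placodal ectoderm (pPPR) dissected from HH6 chick embryos and cultured as explants for 6 h, either with 0.25 ng/µl FGF2 or without FGF2 (control). About 100 tissues were pooled per condition, and 1 library was made per condition for H3K27ac, for H3K27me3 and for the input by nano-ChIP-seq, a chromatin immunoprecipitation protocol for small cell numbers. One label of the FGF2 H3K27me3 library ends in FGF3, while its title and culture condition name FGF2, which is used here. Because each condition and mark has 1 library, there is no replicate spread to judge a difference by, no test was made, and each comparison describes these libraries. The lists hold peak positions without read numbers or heights, read depth is unknown, and the intervals given are 95% Wilson intervals that cover counting error only. More cells with a mark and more of the mark per cell cannot be told apart in pooled tissue. The tissue could not be checked against marker genes, because the lists hold no expression values and no annotation of this genome build was used.

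H3K27ac marks active enhancers and promoters, while trimethylation of the same lysine (H3K27me3) is deposited by Polycomb complexes and marks repressed chromatin. FGF signalling acts on pPPR cells to specify otic-epibranchial progenitors (OEPs), the common source of the inner ear and the epibranchial ganglia. It reaches the genome largely through the MAPK cascade, ETS factors and AP1, the dimer of Jun and Fos proteins. Sprouty proteins such as that encoded by Spry1 are induced by FGF and restrain the signal, Foxi3 and Hesx1 encode transcription factors of placode precursors, and Cxcl14 encodes a secreted chemokine.

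The study cloned elements near these genes for reporter assays, and the primers are shown because they fix which stretch of DNA each gained site below is measured against. The study took putative enhancers as regions flanked by H3K27ac peaks, so an element can lie between peaks without overlapping one. Positions are galGal4, counted from 1, and the strand of each primer in the genome was not determined.
Spry1-E (chr4:52768022-52768515), forward: acgcctctctaccctcttt
Spry1-E, reverse: gctggaagctagagccatatc
Foxi3-E1 (chr4:85595147-85595756), forward: tctgacatttcatcatggcttca
Foxi3-E1, reverse: ggtcatctgaatgacaactgtctc
Foxi3-E2 (chr4:85611260-85611770), forward: tttggccctgttcaaatgg
Foxi3-E2, reverse: cagtttgttgataccttcagtgt
Hesx1-E (chr12:8576366-8576880), forward: caactgctttctataatgtgtaccag
Hesx1-E, reverse: gcgtttgattatcgtgctgtc
Cxcl14-E (chr13:14642196-14643846), forward: agcctaccagttgtcctaga
Cxcl14-E, reverse: cacagtgtattgcttggcttt

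Gained sites lay most densely around Spry1. Of 859 windows of 1 Mb that hold an FGF2 Homer H3K27ac peak, the one from 52 Mb on chromosome 4 held the most gained sites, 34 of its 67 FGF2 peaks or 50.7% (39.1 to 62.3%), while the median window held 6. The same window held 4 kept sites, meaning FGF2 Homer peaks that MACS2 also called, that overlap a control peak of both callers and that overlap no control Homer H3K27me3 peak. In the 597 kb around Spry1-E that the lists of predicted AP1 and DREiVe sites span (chr4:52478299-53074894), 30 of 54 FGF2 peaks were gained sites, or 55.6% (42.4 to 68.0%), and 1 was a kept site. On chromosome 4 as a whole 21.0% (19.4 to 22.6%) of FGF2 peaks were gained sites. Of the other FGF2 peaks in the window, 13 were called by Homer alone and had no control peak, and 6 overlapped a control peak of 1 caller. The FGF2 library thus had 54 Homer and 47 MACS2 H3K27ac peaks in the window, against 8 Homer and 14 MACS2 peaks in control. In the RefSeq annotation of a later assembly (GRCg7b), which was used for gene order only, SPRY1 lies between ANKRD50 and SPATA5, and FGF2 itself follows SPATA5.

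Spry1-E lies wholly inside the gained site chr4:52767724-52769557. This site is the last entry of the FGF2 Homer list, is 1834 bp wide where the next widest entry has 751 bp, and is named like the entries of chromosome 1. Inside it lies an FGF2 peak of 1521 bp called by MACS2, chr4:52767825-52769345. Without this entry there were 5715 gained sites, and the nearest to Spry1-E was chr4:52765504-52766254, 1.77 kb away. That site shares an FGF2 MACS2 peak of 7275 bp (chr4:52759375-52766649) with the gained sites chr4:52759341-52760091 and chr4:52761084-52761834. The 3 sites stood at 12.1, 12.3 and 17.7% of the FGF2 Homer list, counted from its first entry. Control MACS2 called an H3K27ac peak between them, 1.08 kb from the nearest of the 3, while the nearest control Homer peak was 42.5 kb or more from each. The study also cloned a second element at Spry1 that was inactive in its assay. The gained site nearest to it, chr4:52745477-52746227, was 4.57 kb away.

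A larger group of gained sites lay 100.2 to 237 kb beyond Spry1-E. Here 6 gained sites followed each other from 52868759 to 52903005 with no other FGF2 Homer peak between them and no control H3K27ac peak of either caller in the 34.2 kb they span. A further run of 7 gained sites extended from 52945958 to 53006247, with 1 control Homer and 1 control MACS2 peak in its 60.3 kb. The highest listed of the group, chr4:52874222-52874972, stood at 5.41% of the list, lay under a MACS2 peak of 7083 bp and was 50.5 kb from any control H3K27ac peak. None of the 30 gained sites in the Spry1 window overlapped an FGF2 H3K27me3 peak of either caller (0 of 30, with an approximate upper limit of 10%, taken as 3 of 30 and not as a Wilson limit). Over the whole set, an FGF2 H3K27me3 peak of either caller overlapped 23.9% of gained sites and 19.5% of all FGF2 Homer peaks. The Spry1 window held 9 Homer and 3 MACS2 H3K27me3 peaks with FGF2, against 15 Homer peaks in control. The part of these numbers in the 0 of 30 was not tested.

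**Figure D1:**
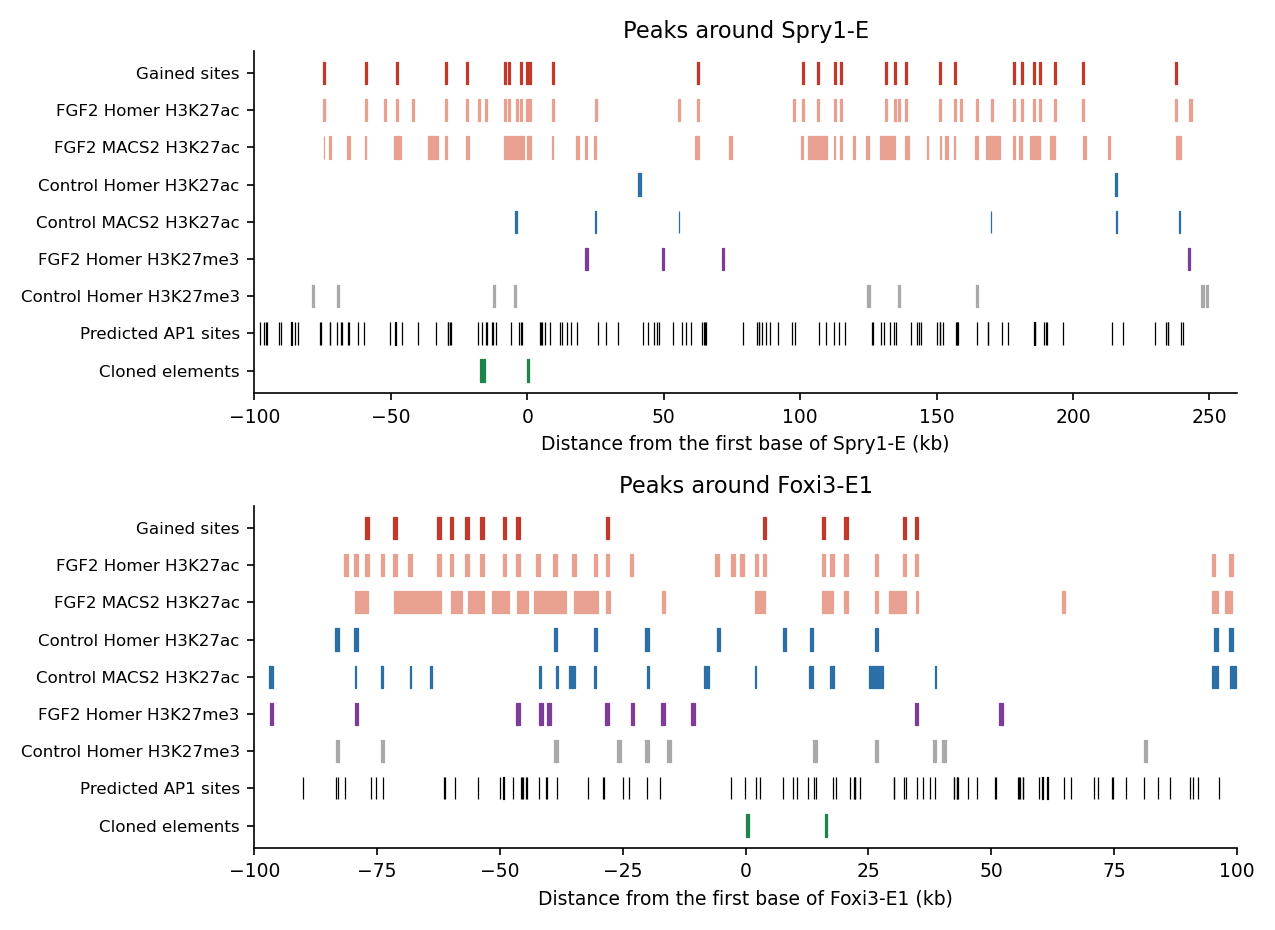
Peaks and elements in kb from the first base of Spry1-E (upper map, the second element to its left is the inactive one) and Foxi3-E1 (lower map). Each bar is 1 interval drawn to scale, with gained sites in the top row. The upper map shows 27 gained sites, with 2 control Homer and 6 control MACS2 H3K27ac peaks. The lower map shows 14 gained sites, with 11 control Homer and 18 control MACS2 H3K27ac peaks.

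At Foxi3 gained and control acetylation were interspersed. In the window chr4:85299360-85898618, 17 of 45 FGF2 peaks were gained sites, or 37.8% (25.1 to 52.4%), and 4 were kept sites. Homer called 45 H3K27ac peaks with FGF2 and 19 in control in this window, but MACS2 called 31 with FGF2 and 44 in control. Over the whole genome the lists went the same 2 ways, with 37405 Homer peaks with FGF2 and 32725 in control, and 28219 MACS2 peaks with FGF2 and 40324 in control. The median distance of the 17 sites to a control H3K27ac peak was 2.25 kb, against 17.3 kb for the 30 sites at Spry1. Foxi3-E2 overlaps the gained site chr4:85610658-85611408 by 149 bp, or 29.2% of the element, and that site was 0.916 kb from a control MACS2 peak. The gained site nearest to Foxi3-E1, chr4:85598594-85599344, was 2.84 kb from the element and 1.23 kb from a control MACS2 peak. For this site and the one at Foxi3-E2, the FGF2 MACS2 peak over the site itself overlapped that control MACS2 peak. Closer to Foxi3-E1, an FGF2 Homer peak that overlapped no control H3K27ac peak ended 0.375 kb before the element. It is not a gained site, because MACS2 did not call it.

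The most compact of the 10 runs of 6 or more gained sites also lay in this window. From 85532306 to 85549155 on chromosome 4, 46.0 to 62.1 kb before Foxi3-E1, 6 neighbouring FGF2 Homer peaks were all gained sites, and their 16.9 kb held no control H3K27ac peak of either caller. The 6 sites stood at 1.22, 8.36, 31.9, 11.3, 2.49 and 36.9% of the list from left to right, and lay under 5 FGF2 MACS2 peaks of 2228 to 9635 bp. The first of them, chr4:85532306-85533056, was the highest listed gained site in any of the windows around FGF-response genes. It was 1.01 kb from a control MACS2 H3K27ac peak. That control peak lies just before the run, inside the same FGF2 MACS2 peak of 9635 bp. Of the 6 sites, 1 held a predicted AP1 site, chr4:85545705-85546455, and 1 overlapped a DREiVe region (a cluster of short motifs conserved between species), chr4:85548405-85549155, which also overlapped an FGF2 Homer H3K27me3 peak.

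Gained sites were fewer at Cxcl14 and Hesx1. In the Cxcl14 window (chr13:14292547-14986655) 10 of 42 FGF2 peaks were gained sites, or 23.8% (13.5 to 38.5%), close to the 18.1% of all FGF2 peaks. None of the 10 stood in the top 25% of the list, where 12 of the sites at Spry1 and 7 of those at Foxi3 stood. The gained site chr13:14641412-14642162 ended 33 bp before Cxcl14-E, under a MACS2 peak of 1739 bp. The control H3K27ac peaks nearest to Cxcl14-E were 0.576 kb (MACS2) and 1.95 kb (Homer) away. The Hesx1 window (chr12:7007272-8710033) held 5 gained sites among 28 FGF2 peaks, or 17.9% (7.88 to 35.6%). It is 1703 kb wide, against 597 kb at Spry1 and 599 kb at Foxi3. None lay within 5 kb of Hesx1-E. The nearest, chr12:8583821-8584571, was 6.94 kb away, and the others were 279 to 1121 kb away. A control MACS2 H3K27ac peak lay 0.561 kb from the element. In GRCg7b HESX1 is flanked by IL17RD, which encodes an inhibitor of FGF receptor signalling, and by APPL1, and CXCL14 is followed by NEUROG1, a neurogenic transcription factor gene of cranial placodes.

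The other windows of these lists with gained sites, named here by position only, held between 1 and 13 gained sites. They were 13 of 61 FGF2 peaks at chr6:16350357-17023839, 7 of 95 at chr26:1330497-1955895, 3 of 30 at chr7:4824563-5420873, 1 of 10 at chr13:13694428-13886539 and 1 of 1 at chr27:3325313-3355343. The share on chromosome 26, 7.37% (3.61 to 14.4%), was near the 8.63% (6.66 to 11.1%) of that whole chromosome. Over all 11 windows there were 87 gained sites among 366 FGF2 peaks, or 23.8% (19.7 to 28.4%), against 18.1% of all FGF2 peaks. Of these, Spry1 held 30 of 54 and Foxi3 17 of 45. In the other windows with more than 1 FGF2 peak the share ranged from 7.37 to 23.8%. Of the 11 windows, 2 held no FGF2 peak. The windows at cloned elements are not independent evidence of a gain, because the study chose those elements on these H3K27ac libraries.

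AP1 is a common target of FGF and MAPK signalling. Inside the 80 gained sites of the windows that list AP1 sites there were 27 predicted AP1 sites in 61.2 kb, or 0.441 per kb (exact Poisson interval 0.291 to 0.642). Inside the 79 kept sites there were 13 in 59.3 kb, or 0.219 per kb (0.117 to 0.375), inside all 322 FGF2 Homer peaks of these windows 0.329 per kb (0.261 to 0.410), and over the whole windows 0.319 per kb. The intervals of gained and kept sites overlap, and that of gained sites includes the density in all peaks. The 2 sets also lie largely in different windows. Of the kept sites 48 lay in the window on chromosome 26, 1 at Spry1 and 4 at Foxi3, against 7, 30 and 17 of the gained sites. A predicted site lay in 18 of the 80 gained sites (22.5%), in 12 of the 79 kept sites (15.2%) and in 67 of all 322 peaks (20.8%). At Spry1, 5 gained sites held 7 of them, among them chr4:52765504-52766254 beside Spry1-E and chr4:52918936-52919686 with 2 each. At Foxi3, 4 gained sites held 5, of which chr4:85627132-85627882 held 2. The highest number in 1 gained site was 3, at chr6:16763257-16764007, a site at 7.17% of the list under a MACS2 peak of 7429 bp. Neither the site that holds Spry1-E nor the one that overlaps Foxi3-E2 held any. DREiVe regions overlapped 5 of 47 gained sites (10.6%, 4.63 to 22.6%), 2 of 35 kept sites (5.71%) and 10 of all 173 FGF2 Homer peaks (5.78%) within the span of that list.

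Outside these loci, dense groups of gained sites differed in how much other acetylation they held. The window from 12 Mb on chromosome 2 resembled Spry1, with 24 gained sites among 47 FGF2 peaks (51.1%, 37.2 to 64.7%), 3 kept sites and 12 control Homer peaks. In the window from 0 Mb on chromosome 4, 28 gained sites stood among 132 FGF2 peaks (21.2%, 15.1 to 28.9%), 43 kept sites and 90 control Homer peaks. The window from 22 Mb on chromosome 7 lay between, with 25 of 78 (32.1%, 22.7 to 43.0%) and 58 control Homer peaks. The window from 2 Mb on chromosome 18 was close to that on chromosome 4, with 22 of 109 (20.2%, 13.7 to 28.7%) and 98 control Homer peaks. The window from 51 Mb on chromosome 5 held 22 of 65 (33.8%, 23.5 to 46.0%), with 11 kept sites and 44 control Homer peaks. That from 24 Mb on chromosome Z held 22 of 61 (36.1%, 25.2 to 48.6%). Its 4 kept sites and 12 control Homer peaks were close to those of the chromosome 2 window. An FGF2 Homer H3K27me3 peak overlapped 1 of 34 gained sites in the window at Spry1 and 7 of 24 in the chromosome 2 window. Each of these windows held 17 such peaks. The windows on chromosomes 7, 18, 5 and Z stood at 6 of 25, 5 of 22, 2 of 22 and 2 of 22. That from 0 Mb on chromosome 4 stood at 3 of 28. Among all gained sites the share was 19.1%.

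Of the 5716 gained sites, 3468 (60.7%) had no gained site as their direct neighbour in the FGF2 Homer list ordered by position. The other 2248 formed 961 runs of 2 to 8. These counts depend on the share of FGF2 peaks that are gained sites, 18.1%. Runs of kept sites were not counted, so the 60.7% alone does not show whether gained sites lie apart or together. The longest run, 8 sites in 33.2 kb, was chr5:50993889-51027063, with 1 control Homer and 1 control MACS2 peak in its span and no FGF2 H3K27me3 at any site. Runs of 7 were chr2:12659892-12699328 and chr2:23469187-23680986 as well as the one beyond Spry1. Of the 6 runs of 6 sites, 4 had no control peak of either caller in their span, namely those described at Spry1 and at Foxi3, chr13:2897044-2917848 and chr5:33860368-33891319. The other runs of 6 were chr1:81538378-81569792 and chr3:27652248-27839360.

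Another gained site lay within 5 kb of 915 gained sites, or 16.0% (15.1 to 17.0%). Among kept sites 38.9% (37.8 to 40.0%) had another kept site within 5 kb, and among all FGF2 Homer peaks 53.5% had another FGF2 peak within this distance. These shares depend on the number of sites in each set. Any other FGF2 Homer peak lay within 5 kb of 2900 gained sites, and the nearest was a gained site for 25.2% (23.7 to 26.9%) and a kept site for 23.0% (21.5 to 24.6%) of them. For the 5253 kept sites with such a neighbour it was a gained site for 12.2% (11.3 to 13.1%) and a kept site for 44.6% (43.2 to 45.9%). The same-class shares, 25.2% for gained and 44.6% for kept sites, stood above the 18.1% of gained and 24.4% of kept sites among all FGF2 peaks. However, the shares among all peaks include peaks without a neighbour within 5 kb. Neighbours can also lie under the same MACS2 peak, and both classes are defined by overlap with MACS2 peaks. Whether sites of a class lie together beyond this was not tested.

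The deposited list of FGF2 putative enhancers adds no further mark to this. It is broader than the set in the study's methods, which takes regions of up to 3 kb without H3K27me3 peaks. In the list, 1552 entries overlap an FGF2 Homer H3K27me3 peak. Of its 12198 entries, 12191 are exactly the gaps between neighbouring FGF2 Homer H3K27ac peaks, up to 4999 bp wide, so that the 2900 gained sites that border an enhancer are as many as those with another FGF2 Homer peak within 5 kb. They are 50.7% (49.4 to 52.0%) of gained sites, against 68.1% (67.1 to 69.2%) of kept sites and 53.5% of all FGF2 Homer peaks. A gained site stood on both borders of 453 of the 11036 enhancers in the chromosome parts used. How many of all 11036 overlap no control enhancer was not counted. Of the 453 it was 443, but by the rule neither of their borders overlaps a control peak, so this number is partly set by the rule. Conversely, 216 gained sites (3.78%, 3.31 to 4.31%) overlapped a control enhancer, against 45.2% of kept sites and 18.0% of all FGF2 Homer peaks. All FGF2 Homer peaks include those that overlap control peaks. Whether the control enhancers are likewise gaps between control Homer peaks was not checked.

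Gained sites often lay close to acetylation called in control tissue, which by the rule they do not overlap. The median distance to the nearest control H3K27ac peak of either caller was 3.73 kb, with quartiles of 1.46 and 10.9 kb. Within 5 kb of a control peak were 57.2% (55.9 to 58.5%) of gained sites, against 77.2% of all FGF2 Homer peaks, which include those that overlap one. FGF2 Homer peaks without a control peak that MACS2 did not call were farther off, with a median of 5.48 kb and 47.5% (46.4 to 48.5%) within 5 kb. At the other end 227 gained sites, or 3.97% (3.50 to 4.51%), were more than 50 kb from any control peak, against 2.71% of all FGF2 Homer peaks and 6.86% of those without a control peak that MACS2 did not call. The 5 farthest were chr7:847018-847768 at 394 kb, chrZ:73965867-73966617 at 366 kb, chr3:83765364-83766114 at 359 kb, chr2:73020530-73021280 at 324 kb and chr7:776348-777098, also at 324 kb. Of these 5 only the first stood in the upper part of the list, at 8.96%, and the others stood at 74.2 to 90.1%.

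**Figure D2:**
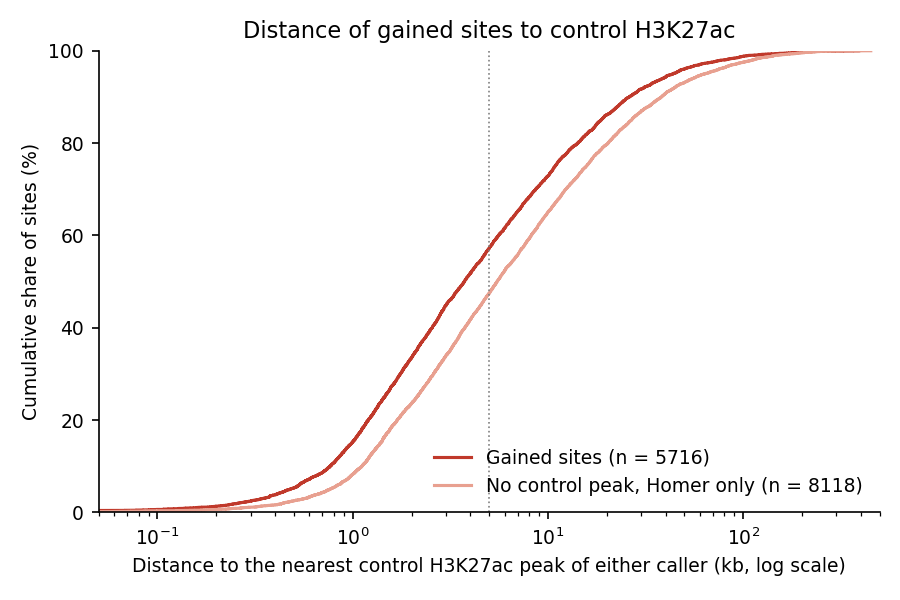
Cumulative share of sites (%) against their distance in kb, on a log scale, to the nearest control H3K27ac peak of either caller, for the 5716 gained sites and for the 8118 FGF2 Homer peaks without a control peak that MACS2 did not call. The dotted line marks 5 kb, where the curves stand at 57.2% and 47.5%.

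Few sites lay at the edge of the rule. Just inside it were chr18:9238086-9238836 and chr3:3170505-3171255, each 1 bp from a control peak, and chr22:2512440-2513190 at 7 bp. Just outside stood chr14:2717229-2717979, which shared 3 bp with control peaks, and chr10:19163179-19163929 and chr5:15638461-15639211, which shared 4 bp. A control peak lay within 100 bp of 37 gained sites, and 96 peaks were left out for an overlap of up to 100 bp.

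The MACS2 peaks behind gained sites were narrow. Their median width was 0.787 kb, with quartiles of 0.425 and 1.45 kb, against a median of 1.48 kb (0.744 to 2.97 kb) for kept sites. MACS2 covered a median of 68.4% of a gained site and 86.4% of a kept site. The 5716 sites lay under 5618 MACS2 peaks, of which 5525 held 1 gained site, 88 held 2 and 5 held 3. For 799 gained sites (14.0%) the MACS2 peak itself touched a control H3K27ac peak elsewhere along its length. The widest MACS2 peaks behind gained sites were 13391 bp over chr4:551123-551873 and 13277 bp over both chr13:16712137-16712887 and chr13:16718114-16718864. All 3 sites were within 2 kb of a control peak.

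Gained sites stood lower in the FGF2 Homer list than kept sites, at a median of 52.3% from the top (quartiles 32.2 and 70.4%), against 23.8% (10.2 and 43.7%). The sources used here do not say what the order of the list means. The share of its peaks that MACS2 also called fell steadily down the list, with 88.7% in the first 10% of entries and 12.5% in the last 10%, and the numbers in the peak names follow the order on every chromosome with over 100 peaks (Spearman rho 0.989 to 0.994). Gained sites made up 8.80% (7.83 to 9.86%) of the first 10%, 25.8% (24.3 to 27.3%) of the sixth and 8.83% (7.87 to 9.89%) of the last of 10 equal parts of the list. Kept sites made up 63.2% of the first part and 1.52% of the last.

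**Figure D3:**
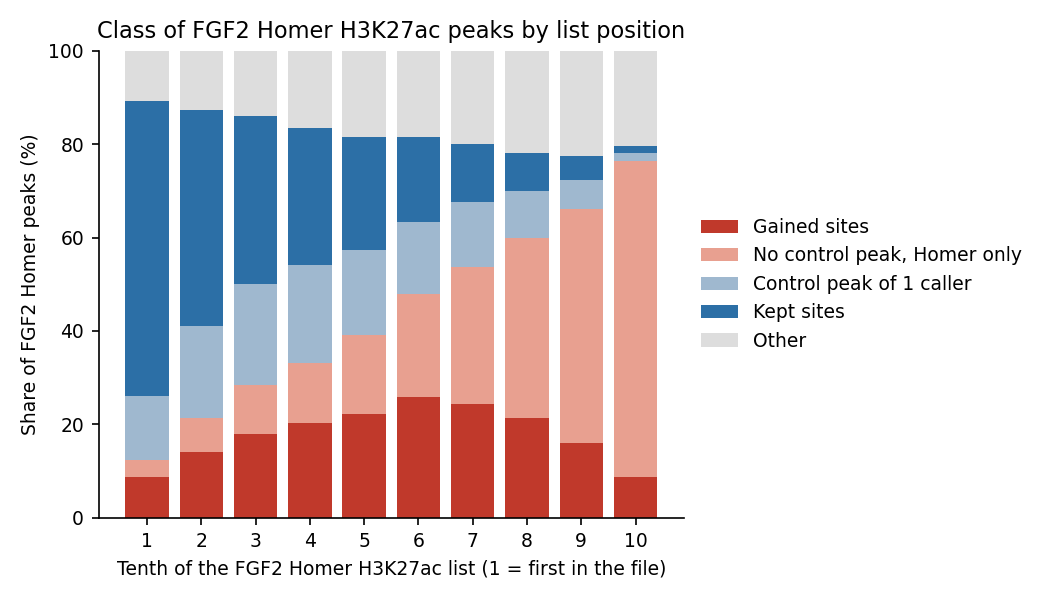
Share of FGF2 Homer H3K27ac peaks (%) in each class, for 10 equal parts of the list in file order. Gained sites make up 8.80% of the first part, 25.8% of the sixth and 8.83% of the last, while kept sites make up 63.2% of the first and 1.52% of the last.

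The measurement of gained sites that the rule did not use was H3K27me3 after FGF2. It is not fully separate from the rule, because each condition has 1 input library and peaks of both marks were called over input. The calls of both marks in a condition may thus share a background, and its part in the overlap was not tested. An FGF2 Homer H3K27me3 peak overlapped 1090 gained sites, or 19.1% (18.1 to 20.1%), against 480 kept sites, or 6.22% (5.71 to 6.79%), and 15.9% of all FGF2 Homer H3K27ac peaks. With MACS2 the shares were 16.4% (15.4 to 17.4%) of gained sites, 5.69% (5.20 to 6.23%) of kept sites and 12.0% of all peaks. Both callers placed FGF2 H3K27me3 on 658 gained sites, or 11.5% (10.7 to 12.4%), against 255 kept sites, or 3.31% (2.93 to 3.73%). Neither set overlaps a control Homer H3K27me3 peak by construction, a step that removed 4.92% (4.40 to 5.50%) of the sites on the way to gained sites and 3.76% (3.36 to 4.20%) on the way to kept sites. Gained sites that also carried H3K27me3 after FGF2 were thus called for H3K27ac and H3K27me3 in FGF2-treated tissue and for neither mark by Homer in control tissue.

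Compared with kept sites, the share on gained sites was higher in every part of the list and in each chromosome class. With Homer H3K27me3 it did not exceed that of all FGF2 Homer H3K27ac peaks in every part of the list. In 4 equal parts of the list, from first to last, FGF2 Homer H3K27me3 overlapped 15.8, 18.6, 21.1 and 19.4% of gained sites, against 4.27, 7.02, 10.4 and 10.3% of kept sites and 8.80, 13.9, 19.4 and 21.7% of all FGF2 Homer H3K27ac peaks. With Homer, gained sites thus stood above all peaks in the first 2 parts, while in the last 2 their intervals (19.3 to 22.9% and 17.1 to 21.8%) included the share of all peaks. With MACS2 H3K27me3, gained sites stood at 15.1, 19.0, 17.1 and 12.2%, against 9.03, 13.2, 15.1 and 10.8% of all peaks. There only the interval of the last part (10.4 to 14.3%) included the share of all peaks. The intervals of gained and kept sites did not overlap in any of the 4 parts with either caller. On chromosomes 1 to 10 the Homer shares were 19.5% of gained and 5.81% of kept sites, on chromosomes 11 to 28 they were 17.6% and 6.83%, and on chromosome Z 21.4% and 4.31%. All FGF2 Homer peaks stood at 17.2, 13.3 and 19.8% in these 3 classes. FGF2 Homer peaks without a control peak that MACS2 did not call stood at 22.4% (21.5 to 23.3%) with Homer H3K27me3, above the gained sites. With MACS2 H3K27me3 the order was the opposite, 12.5% (11.8 to 13.3%) of them against 16.4% (15.4 to 17.4%) of gained sites. The number of H3K27me3 peaks in the lists also differed, with 32518 Homer and 26538 MACS2 peaks with FGF2, against 20827 Homer and 1097 MACS2 peaks in control, and the part of this difference in the overlap was not tested. The control MACS2 H3K27me3 list overlapped 9 gained and 8 kept sites.

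**Figure D4:**
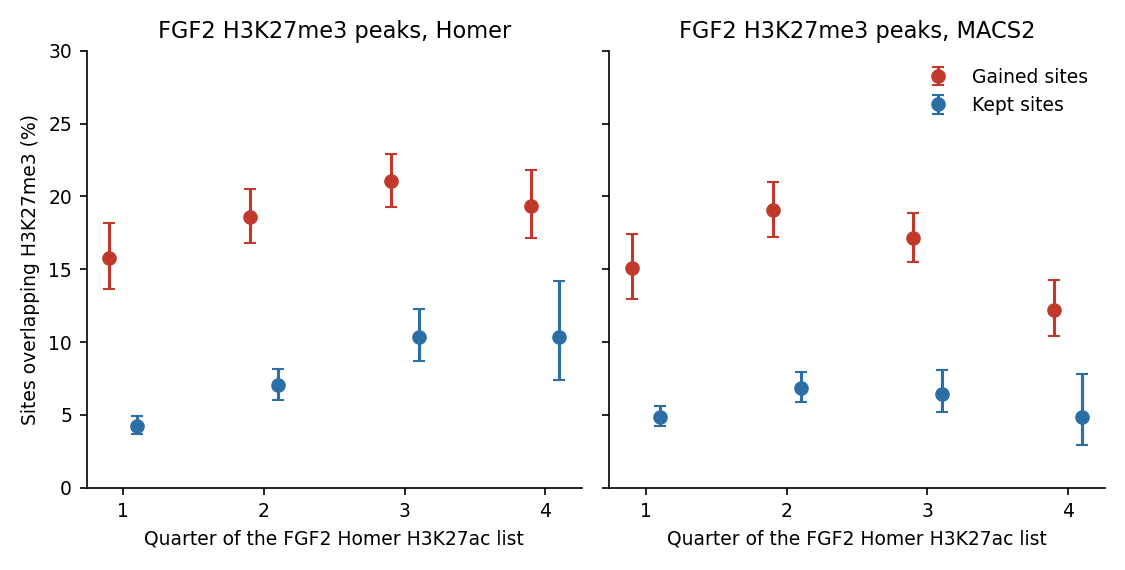
Share of gained and kept sites (%) that overlap an FGF2 H3K27me3 peak, for 4 equal parts of the FGF2 Homer H3K27ac list from first to last, for Homer (left) and MACS2 (right) H3K27me3 peaks. Points are shares and bars 95% Wilson intervals. With Homer, gained sites range from 15.8 to 21.1% and kept sites from 4.27 to 10.4%.

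The 658 gained sites with FGF2 H3K27me3 by both callers differed from the 4348 without it by either caller in their surroundings. They lay a median of 5.65 kb from control H3K27ac, against 3.29 kb, and 37.7% (34.1 to 41.5%) of them bordered an FGF2 enhancer, against 54.5% (53.0 to 56.0%). Their median list position, 50.3%, was near the 51.9% of the sites without H3K27me3. Chromosomes 11 to 28 held 26.0% (22.8 to 29.5%) of them and 28.9% (27.6 to 30.3%) of the sites without it.

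Gained sites were spread unevenly over the chromosomes. Chromosomes 11 to 28, the small and gene-rich microchromosomes of the chick, held 1621 of them, or 28.4% (27.2 to 29.5%), against 45.8% (44.7 to 46.9%) of kept sites and 35.1% of all FGF2 Homer peaks. Within 4 equal parts of the list the share on these chromosomes was, from first to last, 31.6, 29.2, 27.1 and 26.3% for gained sites, 45.1 to 51.3% for kept sites, and 41.2, 38.0, 33.1 and 28.1% for all FGF2 Homer peaks. In the last part the interval of gained sites included the share of all peaks. Read by chromosome, gained sites made up 19.8% (19.3 to 20.4%) of FGF2 peaks on chromosomes 1 to 10, 14.6% (14.0 to 15.3%) on chromosomes 11 to 28 and 22.0% (20.0 to 24.1%) on chromosome Z. Among chromosomes with at least 100 FGF2 peaks the share was lowest on chromosome 26, at 8.63%, and highest on chromosome Z, followed by chromosome 2 at 21.4% (19.9 to 23.0%). Per length the order of the first 2 classes was the opposite, with 9.44 gained sites per Mb on chromosomes 11 to 28 and 6.32 on chromosomes 1 to 10. Chromosome Z, the highest by share, was the lowest per length, at 4.19 per Mb. Control Homer H3K27ac peaks were also densest on chromosomes 11 to 28, with 64.6 per Mb. They stood at 26.7 per Mb on chromosomes 1 to 10 and 14.2 on chromosome Z. The part of this density in the share of gained sites was not tested.

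**Figure D5:**
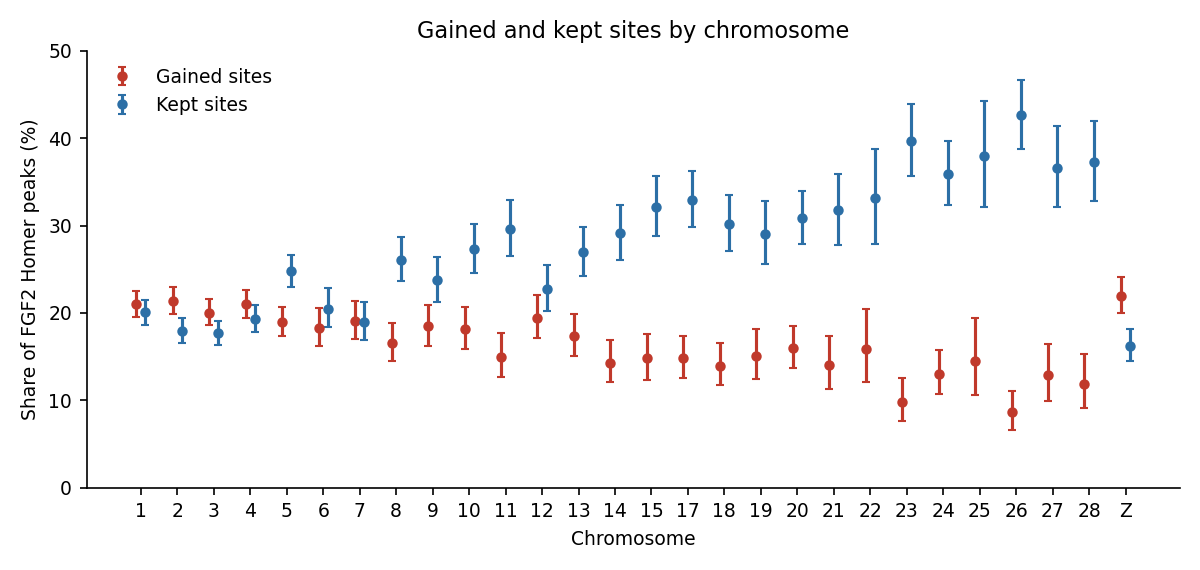
Gained and kept sites as a share of the FGF2 Homer H3K27ac peaks (%) on each chromosome with at least 100 of them. Points are shares and bars 95% Wilson intervals. Gained sites stand at 8.63% on chromosome 26, where kept sites reach 42.7%. They exceed kept sites on chromosome Z (22.0% against 16.2%), and by less on chromosomes 1, 2, 3, 4 and 7.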

How the data were processed

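H3K27ac, H3K27me3 and input were sequenced in 1 library each per condition. Per the study's methods, reads were trimmed and aligned with Novoalign (galGal4), reads with more than 1 alignment were dropped, and the authors called peaks over input with HOMER and MACS2. The deposited files used here are interval lists without counts or heights. The control MACS2 lists give rounded positions for 4432 H3K27ac and 174 H3K27me3 peaks. Blank lines (477) were skipped.

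Intervals overlapped when they shared at least 1 bp. Start positions were raised by 1 for printing. AP1 and DREiVe entries that overlap were joined, and windows were formed where entries lay less than 200 kb apart. Of these windows, 7 on left-out chromosome parts were not used. Regions were named by fixed rules (all in these windows, the nearest to each element, and the densest, longest, widest, farthest and edge cases). The members, lists and rules were chosen with earlier results of these data known. Alternatives changed the overlap asked of MACS2, the distance to control peaks, the H3K27me3 exclusion, the caller, the chromosomes, the last list entry, the 5 kb distance and the enhancer list. The code for the rule was run on simulated lists with sites planted to meet the rule, and 973 of 973 were recovered. This checks the code only, not how well the rule finds real gains. Lists named for Homer enhancers repeat the Homer H3K27ac peaks (37404 with FGF2 and 32725 in control) and were not used. Read numbers, signal, genes and sequence of galGal4 were not analysed here. The software was Python 3.11.15 with matplotlib 3.10.9, scipy 1.17.1 and numpy 2.4.6.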

Additional observations from a re-analysis of the deposited data

How the results depend on the processing

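The gained sites changed in number by less than 1.5 times under each alternative except Homer lists alone, which gave 19087 sites, 227 in the windows around FGF-response genes and 56 predicted AP1 sites inside them. In each alternative setting that was also set beside kept sites, the share with FGF2 H3K27me3 stayed higher on gained sites. The changed rule was applied to gained sites only, and the kept sites stayed the same 7711, except without chromosomes 1, 2 and 3. Without the exclusion by control H3K27me3, the kept sites thus still had that exclusion. Values that left the interval of the main share were as follows. With at least 50% of the Homer peak covered by MACS2, 17.7% overlapped FGF2 Homer H3K27me3, 59.8% lay within 5 kb of control H3K27ac, 53.1% bordered an enhancer and 14.3% had another gained site within 5 kb. With no control peak within 1 kb, 49.5% lay within 5 kb of control H3K27ac, 47.8% bordered an enhancer, 14.1% had another gained site within 5 kb and 25.7% lay on chromosomes 11 to 28. With a MACS2 peak that was also free of control peaks, the H3K27me3 shares were 20.4% (Homer) and 17.4% (MACS2), and the same 4 shares were 50.2%, 46.5%, 13.9% and 26.2%. Without the exclusion by control H3K27me3, the H3K27me3 shares were 20.8% (Homer) and 17.9% (MACS2). With Homer lists alone the MACS2 H3K27me3 share was 13.6% and the 4 shares were 43.1%, 48.3%, 32.6% and 30.9%. With MACS2 peaks as the unit the H3K27me3 shares were 22.0% (Homer) and 18.2% (MACS2), and the 4 shares were 51.4%, 16.9%, 11.8% and 26.4%. Without chromosomes 1, 2 and 3, 61.2% lay within 5 kb of control H3K27ac, 53.3% bordered an enhancer and 41.0% lay on chromosomes 11 to 28. A distance of 2 kb gave 33.5% near control H3K27ac and 6.44% near another gained site, and a distance of 10 kb gave 72.9% and 26.6%. Enhancers derived again from gaps of up to 3 kb without H3K27me3 were bordered by 31.2% of gained sites. Without the last entry of the FGF2 Homer list all 9 values stayed within these limits. Beyond what a setting does by its own construction, the cause of these shifts was not tested.

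No paired analysis was possible because there is 1 library per condition and mark. For the same reason a gain cannot be told apart from variation between libraries. The depth of each library is unknown, so a site without a control peak was not called there, which is less than saying that the mark was absent.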
